A study of Mus musculus with 11 samples.

Results

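Mael, Asz1, Piwil2, Piwil4, Mov10l1, Gtsf1, Ddx4 and Tex19.1 are 8 genes that act in the Piwi-interacting RNA (piRNA) pathway or otherwise silence transposons in germ cells. They were taken by name, with every probe that the array annotation gives to their symbols, which made 11 of the 45281 probes on the array. A kept probe was one above background on at least 3 arrays. The array measured 19057 named genes, of which 13350 had a kept probe, and 7 of the 8 genes were among these. Mael was not. Transcripts had been measured in total RNA of ovaries from newborn mice, on Illumina MouseWG-6 v2 BeadChips, which read each gene through short probes fixed to beads. The groups were ovaries labelled Sohlh1 KO (n = 4), ovaries labelled Sohlh2 KO (n = 3) and Wildtype ovaries (n = 4). All carried the C57BL/6/129S6/SvEv strain background. The labels name no allele or Cre driver and do not say whether replicates came from separate animals, so that p-values measure the spread between these arrays, which may be technical. Both targeted genes encode germ cell transcription factors with a basic helix-loop-helix domain, and the study asked how ovarian transcripts change without each of them.

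In the piRNA pathway, Piwi proteins carry small RNAs that pair with transposon transcripts. The paired transcripts are cut in the cytoplasm, or their genes are methylated and silenced in the nucleus. Helicases, Tudor-domain proteins and mitochondrial scaffold proteins make and load these RNAs in the germ granules called nuage. In mice the pathway is best known from the testis, where its loss frees retrotransposons and stops spermatogenesis, while females that lack many of its genes remain fertile. Oocytes use it as well, next to small interfering RNAs.

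Basic helix-loop-helix proteins bind the E-box, written CANNTG, so the promoters of the genes are shown for their E-boxes. RefSeq promoters of the GRCm38.p6 mouse build, from 250 bases before to 50 after the start, were found for 7 of the 8 genes, with 2 promoters for Piwil4. Piwil2 was not matched. The 3 promoters that hold the palindromic E-box CACGTG belong to Mael, Mov10l1 and Ddx4, and the Sohlh1 promoter, which holds 3 copies of it, is shown beside them. Each window runs 5′ to 3′ on the strand of the gene, and capitals mark CACGTG.
Mael, chr1:166238895-166238994, minus strand: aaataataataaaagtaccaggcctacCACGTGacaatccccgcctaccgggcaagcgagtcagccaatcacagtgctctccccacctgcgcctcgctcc
Mov10l1, chr15:88982744-88982843, plus strand: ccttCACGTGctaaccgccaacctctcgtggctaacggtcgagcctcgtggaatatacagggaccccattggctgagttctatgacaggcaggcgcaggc
Ddx4, chr13:112652311-112652410, minus strand: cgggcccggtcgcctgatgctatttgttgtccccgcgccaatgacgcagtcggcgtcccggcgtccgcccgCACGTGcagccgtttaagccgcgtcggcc
Sohlh1, chr2:25847399-25847498, minus strand: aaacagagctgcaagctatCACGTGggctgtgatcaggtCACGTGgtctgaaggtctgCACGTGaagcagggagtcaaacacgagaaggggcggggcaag
The Tex19.1 promoter holds E-boxes of other spelling, marked in capitals in its window.
Tex19.1, chr11:121145943-121146042, plus strand: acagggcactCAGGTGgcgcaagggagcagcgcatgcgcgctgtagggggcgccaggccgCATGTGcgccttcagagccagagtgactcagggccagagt
The motif CACGTG began 223 bases before the start in Mael, 246 bases before it in Mov10l1 and 29 bases before it in Ddx4. It stood in 3 of the 8 member promoters, against 7.15% of all 32851 promoters in the table. CANNTG, of which CACGTG is one case, stood in 6 of the 8 member promoters, against 72.3% of all promoters. CAGCTG, another case of it, stood in 0 of the 8, against 16.3% of all. The Asz1 and Gtsf1 windows held no CANNTG. These motifs read the same on both strands, and a match describes the letters only.

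The targeted genes were read first. Sohlh1 was at 8.69 ± 0.29 in Sohlh1 KO, 8.70 ± 0.11 in Sohlh2 KO and 11.26 ± 0.15 in Wildtype on the normalized log2 scale used below (SD over arrays). The Sohlh2 probe was faint, at 5.71 ± 0.44 in Sohlh1 KO, 4.70 ± 0.06 in Sohlh2 KO, where it was above background on 0 of 3 arrays, and 5.01 ± 0.14 in Wildtype. By limma, Sohlh2 differed from Wildtype by -0.31 in Sohlh2 KO (adjusted p = 0.284) and by 0.70 in Sohlh1 KO (adjusted p = 0.0115). The Sohlh2 probe thus does not settle the Sohlh2 KO label. The sources used here do not place these probes relative to what was deleted. The Wildtype arrays shared chip 1 with Sohlh1 KO 1 and 2. The Sohlh2 KO arrays, which the titles number 2, 3 and 4, shared chip 2 with Sohlh1 KO 3 and 4. Wildtype and Sohlh2 KO thus shared no chip, and a difference between them with chip as a block rests on the Sohlh1 KO arrays. The share of probes above background was 45.2% to 52.6%, and the small number of arrays sets the precision.

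Of the 7 genes with a kept probe, 6 rose in Sohlh1 KO and 3 rose in Sohlh2 KO against Wildtype, and 0 fell in either (limma, adjusted p under 0.05). Of all 13350 genes, 16.3% rose and 16.4% fell in Sohlh1 KO, and 12.5% rose and 13.0% fell in Sohlh2 KO. Asz1, Piwil2 and Tex19.1 rose in both knockouts. Piwil4, Mov10l1 and Ddx4 rose in Sohlh1 KO, and Gtsf1 was the one gene whose difference was below 0. Each gene was read here by its brightest kept probe. By its other kept probe Ddx4 rose in Sohlh2 KO as well (1.32, limma adjusted p = 0.000258 over kept probes). The median difference of the 7 genes was 1.46 in Sohlh1 KO and 1.00 in Sohlh2 KO, beside 0.03 and 0.04 over all genes. The members were chosen with earlier results of these data known, so their counts and medians are not an unbiased contrast with all genes. That limit applies to the overlap counts and to the lists read below as well. In whole ovaries, a change in the share of cells of a type cannot be told apart from a change in RNA per cell. This holds for every difference here and below, higher or lower. Each kept probe of the 7 genes was above background on at least 3 arrays of every group.

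**Figure D1:**
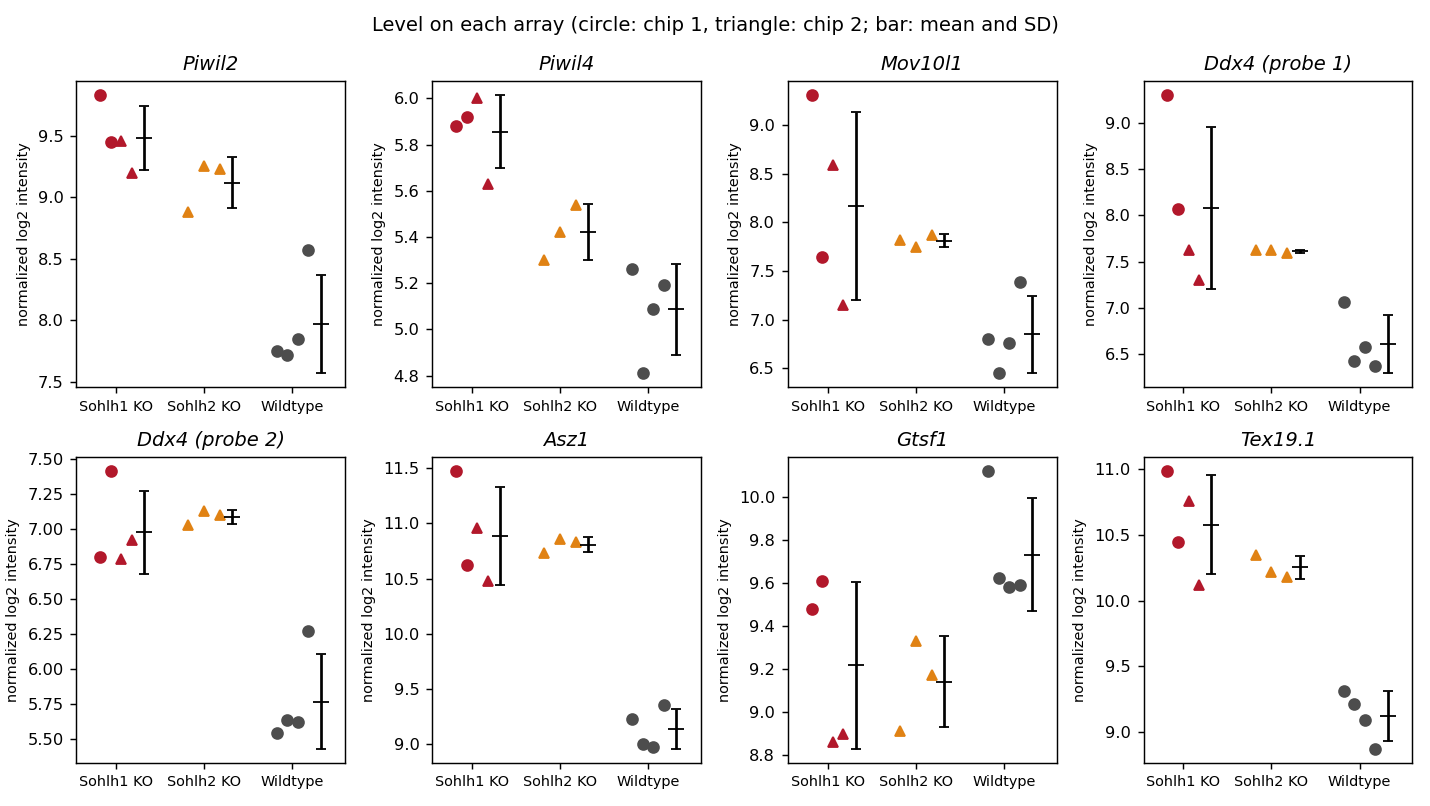
Normalized log2 intensity of the 8 kept probes (vertical axis, a separate scale for each panel) on each array of Sohlh1 KO, Sohlh2 KO and Wildtype. Circles are arrays of chip 1, triangles arrays of chip 2, and bars the group mean with its SD. All knockout arrays lie above all Wildtype arrays for Piwil2, Piwil4, Asz1, Tex19.1 and both Ddx4 probes. The Gtsf1 panel has its highest mean in Wildtype, at 9.73 ± 0.26.

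Piwil2 (Mili) is the cytoplasmic Piwi protein that cuts transposon transcripts and starts the amplification cycle of piRNAs. It was at 9.83, 9.45, 9.46 and 9.20 on Sohlh1 KO arrays 1 to 4, at 8.88, 9.25 and 9.23 on Sohlh2 KO arrays 2 to 4, and at 7.75, 7.72, 7.85 and 8.57 on Wildtype arrays 1 to 4. Every knockout array lay above every Wildtype array, although Wildtype 4, at 8.57, came close to the lowest of them, at 8.88. The group means were 9.48 ± 0.26 in Sohlh1 KO, 9.12 ± 0.21 in Sohlh2 KO and 7.97 ± 0.40 in Wildtype. Piwil2 thus rose by 1.51 on the log2 scale, or 2.85-fold, in Sohlh1 KO (SE 0.197, adjusted p = 6.14e-05). Its rise in Sohlh2 KO was 1.15, or 2.21-fold (SE 0.213, adjusted p = 0.00145).

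Piwil4 (Miwi2) is the nuclear Piwi protein that directs DNA methylation of transposons in fetal male germ cells. Its kept probe was faint, at 5.88, 5.92, 6.00 and 5.63 in Sohlh1 KO, 5.30, 5.42 and 5.54 in Sohlh2 KO, and 5.26, 4.81, 5.09 and 5.19 in Wildtype, where it was above background on 3 of 4 arrays. The 3 groups did not overlap and stood in the order Sohlh1 KO, Sohlh2 KO, Wildtype, with means of 5.86 ± 0.16, 5.42 ± 0.12 and 5.09 ± 0.20. Piwil4 rose by 0.77, or 1.71-fold, in Sohlh1 KO (SE 0.132, adjusted p = 0.000613). In Sohlh2 KO the difference of 0.33 did not pass (SE 0.143, adjusted p = 0.108). Because the probe lies close to background, the size of the rise in Sohlh1 KO followed the background correction, at 0.22 without one (adjusted p = 0.0118) and 0.43 with a larger offset. The other Piwil4 probe was above background on 0 of 11 arrays.

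Mov10l1 is the RNA helicase that binds piRNA precursors and begins their processing. It was at 9.31, 7.64, 8.59 and 7.15 in Sohlh1 KO, a spread wider than in the other groups. Sohlh2 KO had 7.82, 7.75 and 7.87, and Wildtype had 6.80, 6.45, 6.76 and 7.39. Sohlh1 KO 4 lay below Wildtype 4, so these groups overlapped, while all Sohlh2 KO arrays lay above all Wildtype arrays. Mov10l1 rose 2.50-fold in Sohlh1 KO (8.17 ± 0.97 against 6.85 ± 0.39 in Wildtype, log2 difference 1.32, SE 0.370, adjusted p = 0.0150). This call was lost when Wildtype 2 and 3, whose titles carry a letter b of unstated meaning, were left out (1.07, adjusted p = 0.149), and the difference was 0.83 without background correction (adjusted p = 0.0247). In Sohlh2 KO Mov10l1 was at 7.81 ± 0.06, a difference of 0.96 from Wildtype that did not pass (SE 0.400, adjusted p = 0.0980) and was 0.54 without background correction.

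Ddx4, the mouse Vasa homologue, is an RNA helicase of the nuage and a general marker of germ cells, and it had 2 kept probes. Probe 1, the brighter one, was at 9.30, 8.07, 7.63 and 7.30 in Sohlh1 KO, 7.62, 7.62 and 7.59 in Sohlh2 KO, and 7.06, 6.43, 6.58 and 6.37 in Wildtype. Probe 2 was at 6.80, 7.42, 6.79 and 6.92 in Sohlh1 KO, 7.03, 7.13 and 7.10 in Sohlh2 KO, and 5.54, 5.63, 5.62 and 6.27 in Wildtype. On both probes all knockout arrays lay above all Wildtype arrays, but they ordered the Sohlh1 KO arrays differently, with array 1 highest on probe 1 and array 2 highest on probe 2.

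By probe 1, Ddx4 rose 2.77-fold in Sohlh1 KO (8.08 ± 0.88 against 6.61 ± 0.31 in Wildtype, log2 difference 1.47, SE 0.332, adjusted p = 0.00429). The same probe differed by 1.00 in Sohlh2 KO (7.61 ± 0.01), which did not pass (SE 0.359, adjusted p = 0.0572) and was 0.53 without background correction. By probe 2, with p-values adjusted over the 24451 kept probes, Ddx4 rose in Sohlh1 KO (6.98 ± 0.30 against 5.76 ± 0.34 in Wildtype, 1.22, adjusted p = 0.000211) and in Sohlh2 KO (7.09 ± 0.05, 1.32, adjusted p = 0.000258). At that level 15.3% of all kept probes rose in Sohlh1 KO and 11.7% in Sohlh2 KO. Probe 1 lost its call in Sohlh1 KO when Wildtype 2 and 3 were left out (1.37, adjusted p = 0.0547), and its difference was 0.87 without background correction (adjusted p = 0.0125). The remaining Ddx4 probe was above background on 0 of 11 arrays.

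Asz1 (Gasz) is the scaffold protein on mitochondria where piRNA precursors are processed. Its values were 11.48, 10.62, 10.96 and 10.48 in Sohlh1 KO, 10.73, 10.86 and 10.83 in Sohlh2 KO, and 9.22, 9.0, 8.97 and 9.35 in Wildtype. The lowest knockout array lay above the highest Wildtype array by more than the range within Wildtype. Asz1 rose 3.37-fold in Sohlh1 KO (10.89 ± 0.45 against 9.13 ± 0.18 in Wildtype, log2 difference 1.75, SE 0.191, adjusted p = 1.22e-05). It rose 3.19-fold in Sohlh2 KO (10.81 ± 0.07, log2 difference 1.67, SE 0.206, adjusted p = 4.86e-05).

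Gtsf1, a zinc finger protein that Piwi proteins need for silencing, was at 9.48, 9.61, 8.86 and 8.90 in Sohlh1 KO, 8.91, 9.33 and 9.17 in Sohlh2 KO, and 10.12, 9.62, 9.58 and 9.59 in Wildtype. Sohlh1 KO 2 lay within the Wildtype range, while all Sohlh2 KO arrays lay below it. Neither difference passed, at -0.51 in Sohlh1 KO (9.22 ± 0.39 against 9.73 ± 0.26 in Wildtype, SE 0.195, adjusted p = 0.0602) and -0.59 in Sohlh2 KO (9.14 ± 0.21, SE 0.211, adjusted p = 0.0572). Gtsf1 was called lower in 6 of 26 alternatives in Sohlh1 KO and in 9 of 25 in Sohlh2 KO. With cyclic loess in place of quantile normalization it was called lower in both (adjusted p = 0.0415 and 0.0365). Then 6 genes were higher and 1 lower in Sohlh1 KO, and 3 higher and 1 lower in Sohlh2 KO. An offset of 50, no background correction and array weights also called Gtsf1 lower in both. The Sohlh1 KO arrays split by chip, with 9.48 and 9.61 on chip 1 and 8.86 and 8.90 on chip 2.

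Mael, a nuage protein of piRNA production and transposon silencing, has 1 probe, and it was above background on 0 of 11 arrays. Its intensity was 132 to 148 in Sohlh1 KO, 137 to 145 in Sohlh2 KO and 123 to 134 in Wildtype, against background levels of 149 to 159, so no difference of Mael could be measured.

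Tex19.1, a protein of mammals that represses retrotransposons in germ cells and placenta, was at 10.99, 10.45, 10.76 and 10.12 in Sohlh1 KO, 10.35, 10.22 and 10.18 in Sohlh2 KO, and 9.31, 9.21, 9.09 and 8.87 in Wildtype. The knockouts overlapped each other, and both lay wholly above Wildtype. Tex19.1 rose by 1.46, or 2.75-fold, in Sohlh1 KO (10.58 ± 0.38 against 9.12 ± 0.19 in Wildtype, SE 0.175, adjusted p = 2.91e-05). Its rise in Sohlh2 KO was 1.13, or 2.19-fold (10.25 ± 0.09, SE 0.189, adjusted p = 0.000623). Its paralogue Tex19.2 also rose, and how far each probe binds the other transcript was not tested.

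By overlap of single arrays, 5 of the 7 genes lay wholly above Wildtype in Sohlh1 KO, against 15.0% of all genes, and 6 lay wholly above it in Sohlh2 KO, against 24.0% of all genes. Gtsf1 lay wholly below Wildtype in Sohlh2 KO, as did 19.4% of all genes. Every one of the 7 genes had an unadjusted p under 0.05 in each knockout, against 42.1% of all genes in Sohlh1 KO and 36.7% in Sohlh2 KO. The calls in Sohlh2 KO depended on arrays of the other knockout, which enter that comparison through the shared estimate of spread alone. Without Sohlh1 KO 1, the count called in Sohlh2 KO was 6 (Mov10l1 and Ddx4 higher and Gtsf1 lower in addition). Without Sohlh1 KO 4 it was 5 (Mov10l1 and Ddx4 in addition).

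**Figure D2:**
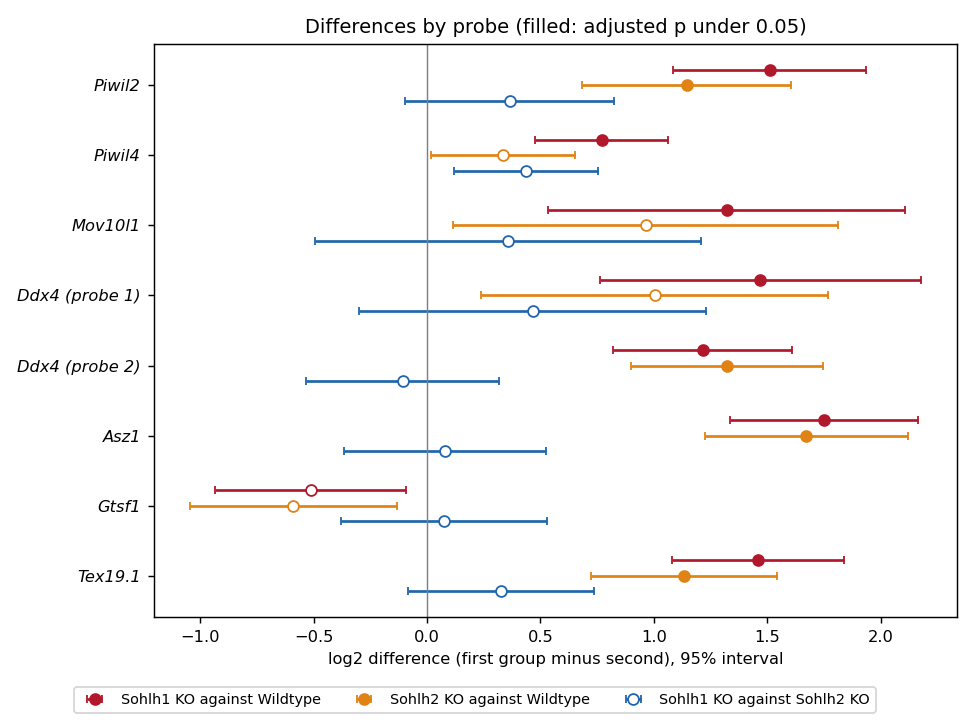
Log2 difference with its 95% interval (horizontal axis) for each kept probe in Sohlh1 KO against Wildtype, Sohlh2 KO against Wildtype and Sohlh1 KO against Sohlh2 KO. Filled points have an adjusted p under 0.05 over the 24451 kept probes; every filled point lies above 0, and 0 points of the direct comparison are filled.

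Set directly against each other, the 2 knockouts differed in 0 of the 7 genes by limma, as 0.0375% of all genes did. By the brightest kept probe of each gene, the estimate was above 0 (Sohlh1 KO higher) for all 7, against 46.6% of all genes. The median was 0.36. By Ddx4 probe 2 the estimate was below 0, at -0.11 (limma adjusted p = 0.949 over kept probes). Within chip 2, which holds 2 Sohlh1 KO and 3 Sohlh2 KO arrays, the estimate by the brightest probe was above 0 for 4 genes. It was below 0 for 3 (Asz1, Gtsf1 and Ddx4). Piwil4 had the one unadjusted p under 0.05, as did 8.51% of all genes, and the one pair of groups that did not overlap, as did 3.01% of all genes. Its difference was 0.44, with a 95% interval of 0.13 to 0.75 (adjusted p = 0.343). Within chip 2 it was 0.39 (adjusted p = 0.522). For Asz1 the interval of the direct difference ran from -0.37 to 0.53, for Piwil2 from -0.10 to 0.83, for Tex19.1 from -0.08 to 0.74 and for Gtsf1 from -0.38 to 0.53. For Mov10l1 it ran from -0.51 to 1.22 and for Ddx4 from -0.31 to 1.24, so the arrays left room for differences of either sign in these 6 genes.

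Within chip 1, where 2 Sohlh1 KO arrays lay beside the Wildtype arrays, the same 6 genes rose in Sohlh1 KO. The log2 differences there were 1.92 for Asz1, 1.67 for Piwil2, 1.62 for Mov10l1, 1.60 for Tex19.1, 2.08 for Ddx4 and 0.81 for Piwil4, with adjusted p between 0.00057 and 0.0240. Gtsf1 differed by -0.18 there (adjusted p = 0.556). With chip as a block, which gave the same differences in Sohlh1 KO, the differences in Sohlh2 KO were 2.00 for Asz1, 1.45 for Piwil2, 1.42 for Tex19.1 and 2.22 for Ddx4, all called, with adjusted p between 0.00165 and 0.0163. Mov10l1 (1.57, adjusted p = 0.149) and Piwil4 (0.42, adjusted p = 0.294) were not called there, and Gtsf1 was at 0.07 (adjusted p = 0.897), no longer below 0.

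The arrays of Sohlh1 KO spread more than those of Sohlh2 KO for each of the 7 genes. Sohlh1 KO 1 was the highest of its group for 5 of the 7 genes, and Sohlh1 KO 4 was the lowest for 6. The spread was widest for Mov10l1 and Ddx4 probe 1, with SDs of 0.97 and 0.88. In Sohlh2 KO the SDs of these probes were 0.06 and 0.01, over 3 arrays that share chip 2.

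**Figure D3:**
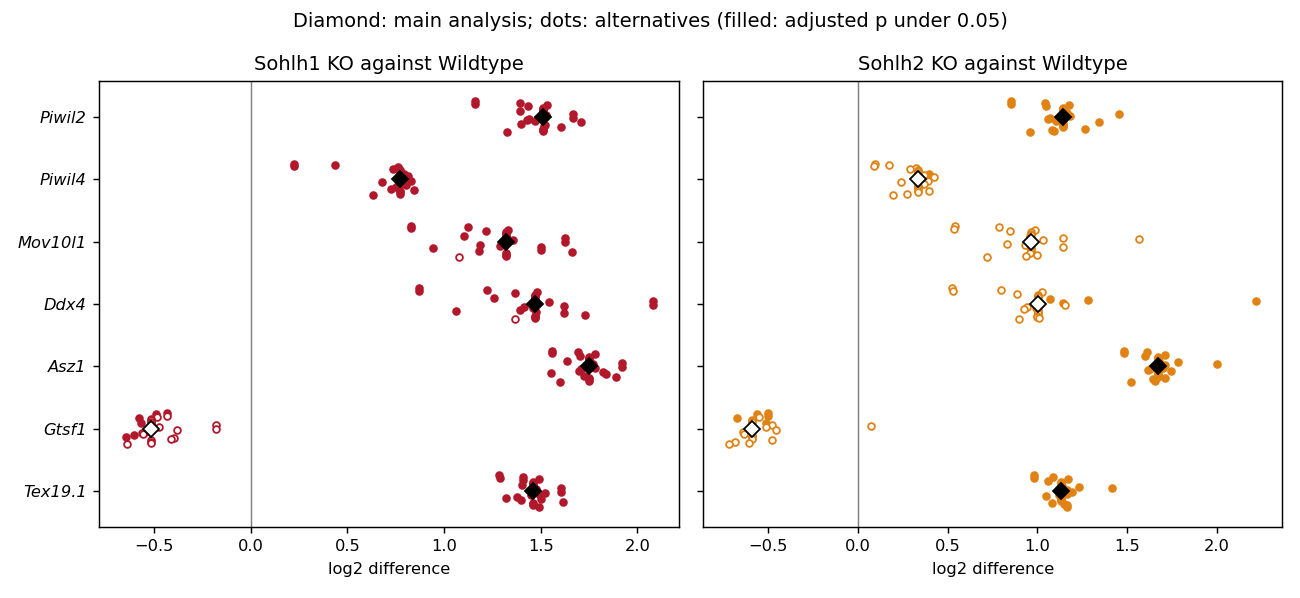
Log2 difference of each gene (horizontal axis) in Sohlh1 KO against Wildtype (left) and Sohlh2 KO against Wildtype (right) under the processing used (diamond) and under each alternative (dots), filled where the adjusted p was under 0.05. Asz1, Piwil2 and Tex19.1 stayed called in both panels under every alternative run, and Gtsf1 crossed 0 once, at 0.07.

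Genes were then named that followed each member most closely over the 11 arrays, by the root mean square difference of their gene-centred log2 values. Piwil2 was nearest to Smc1b (0.143) and Gm11346 (0.185), Asz1 to Adamts16 (0.114) and Tcfl5 (0.117), and Tex19.1 to Tmem178 (0.167) and Rpl39l (0.181). Piwil4 was nearest to Raver2 (0.148) and Lhfpl2 (0.151), and Gtsf1 to E2f5 (0.106) and Kpna3 (0.107). The 2 helicases had looser neighbours, which were Ccdc73 (0.248) and Tdrd9 (0.290) for Mov10l1, and Adamts1 (0.269) and Tmem178 (0.314) for Ddx4. Smc1b, a cohesin subunit of meiotic chromosomes, rose in both knockouts (1.35 and 1.05). Tdrd9, a nuage helicase of the same pathway, did so as well. Genes picked for following a member on these arrays share its differences by that choice, so these rises are no separate result.

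The pathway has further genes, of which a list of 27 was read. On the array 24 of them had a probe and 19 were tested. In Sohlh1 KO 7 rose and 4 fell, with a median difference of 0.26, and in Sohlh2 KO 5 rose and 4 fell, with a median of 0.21. Both counts of falls include Gtsf1l, which passed the filter through Wildtype alone. Over all genes 16.3% rose and 16.4% fell in Sohlh1 KO, 12.5% rose and 13.0% fell in Sohlh2 KO, and the medians were 0.03 and 0.04. The counts moved with the chip, at 5 higher and 2 lower within chip 1 in Sohlh1 KO and 4 higher and 1 lower with chip as a block in Sohlh2 KO.

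Tex19.2, the paralogue of Tex19.1, had 10.60, 10.92, 10.80 and 10.67 in Sohlh1 KO, 10.49, 10.16 and 10.65 in Sohlh2 KO, and 8.50, 8.27, 7.74 and 8.02 in Wildtype. It rose by 2.61 in Sohlh1 KO (adjusted p = 7.7e-08) and by 2.30 in Sohlh2 KO (adjusted p = 7.5e-07), the widest differences of the list. Gpat2, a mitochondrial outer membrane protein of piRNA production, was at 11.15 ± 0.23 in Sohlh1 KO, 11.02 ± 0.09 in Sohlh2 KO and 9.03 ± 0.29 in Wildtype, and rose by 2.11 and 1.99. Tdrd9, a partner of Piwil4 in fetal male germ cells, was at 9.36 ± 0.68 in Sohlh1 KO, 8.74 ± 0.12 in Sohlh2 KO and 7.47 ± 0.36 in Wildtype. It rose by 1.89 in Sohlh1 KO and 1.27 in Sohlh2 KO, and the second call was lost without Wildtype 2 and 3 (1.00, adjusted p = 0.108).

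Tdrkh, a mitochondrial Tudor protein that takes part in trimming piRNAs, was at 9.59 ± 0.20 in Sohlh1 KO, 9.68 ± 0.04 in Sohlh2 KO and 8.67 ± 0.11 in Wildtype, and rose by 0.92 and 1.01. Tdrd7, another Tudor protein of germ granules, rose by 0.41 and 0.52, but its call in Sohlh1 KO was lost in 13 of 26 alternatives, and that in Sohlh2 KO in 4 of 25, which were chip as a block (0.29, adjusted p = 0.489), Wildtype 2 and 3 left out (adjusted p = 0.126), Sohlh2 KO 3 left out (adjusted p = 0.0699) and Sohlh2 KO 4 left out (adjusted p = 0.0803). Rnf17, a Tudor protein of male germ cells, and Mov10, a helicase related to Mov10l1, rose in Sohlh1 KO (0.61 and 0.63), and these calls were lost in 10 and 11 of 26 alternatives. Rnf17 was close to background, above it on 2 of 4 Wildtype and 1 of 3 Sohlh2 KO arrays. Without background correction its difference in Sohlh1 KO was 0.18 (adjusted p = 0.0887). The differences of Rnf17 and Mov10 in Sohlh2 KO were 0.30 and 0.57 (adjusted p = 0.348 and 0.0789). Whether the knockouts differ there was tested in the direct comparison, where 0 of the 19 genes passed, and 0 had an unadjusted p under 0.05 in limma.

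Wdr77, the cofactor of the arginine methyltransferase that marks Piwi proteins, was at 9.17 ± 0.16 in Sohlh1 KO, 9.35 ± 0.09 in Sohlh2 KO and 9.97 ± 0.11 in Wildtype, and fell by 0.79 and 0.61 on the log2 scale. Tdrd5, a Tudor protein of the nuage, fell by 0.53 and 0.56. Gtsf1l, the paralogue of Gtsf1, was above background on 0 arrays of either knockout and on 3 of 4 in Wildtype, so that it passed the filter through Wildtype alone and its call is not independent of that filter. With each knockout array raised to the lowest signal counted as above background, it was at least 1.27-fold lower in Sohlh1 KO and at least 1.24-fold lower in Sohlh2 KO. Its adjusted p with no filter on probes was 0.00205 in Sohlh1 KO and 0.00322 in Sohlh2 KO. Tdrd12 fell in Sohlh1 KO (-0.49), and the chaperone gene Hsp90aa1 fell in Sohlh2 KO (-0.63). With chip as a block Hsp90aa1 was at -0.08 in Sohlh2 KO (adjusted p = 0.853), and its call was also lost without Sohlh2 KO 2 (adjusted p = 0.0506) or Sohlh2 KO 4 (adjusted p = 0.0626). Chip as a block ended the calls of Wdr77 (-0.65, adjusted p = 0.0670) and Tdrd5 (-0.37, adjusted p = 0.231) in Sohlh2 KO as well. Within chip 1, Tdrd5 (-0.43, adjusted p = 0.0741) and Tdrd12 (-0.50, adjusted p = 0.0740) were not called in Sohlh1 KO. Piwil1 (Miwi), the Piwi protein of later male germ cells, did not pass, with differences of 0.38 and 0.21. Pld6, Mybl1, Morc1, Tex15 and Gtsf2 had no probe above background, and Fkbp6, Btbd18 and Spocd1 had no probe in the annotation used.

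**Figure D4:**
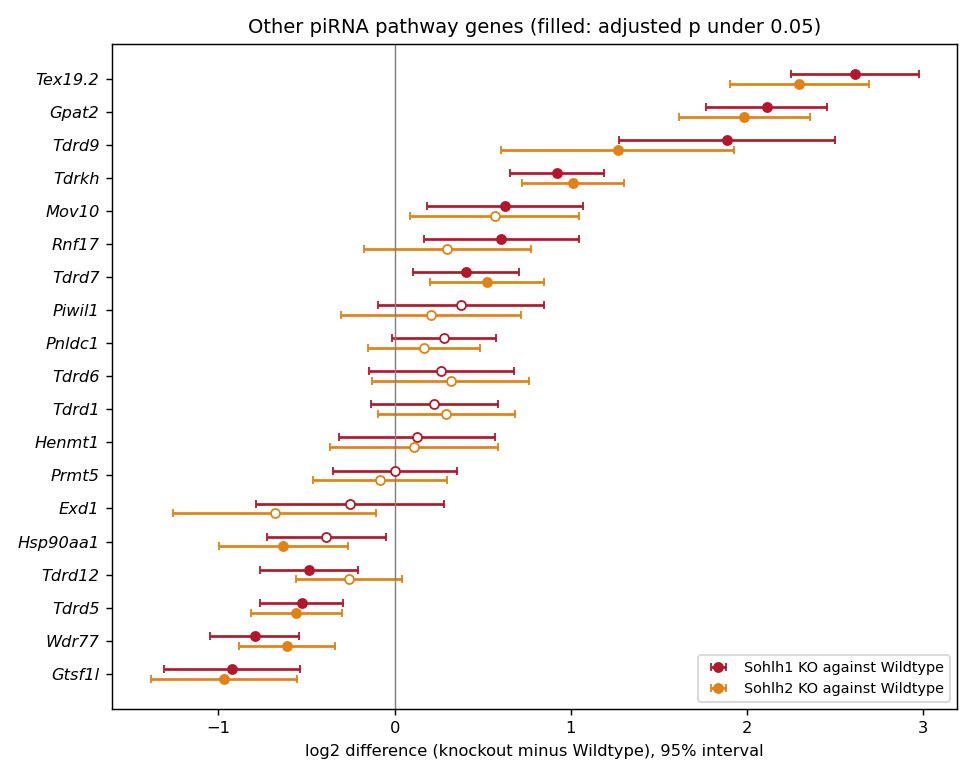
Log2 difference with its 95% interval (horizontal axis) for the 19 tested genes of the list of other piRNA pathway genes, in Sohlh1 KO and Sohlh2 KO against Wildtype, in the order of the Sohlh1 KO values. Filled points have an adjusted p under 0.05; Tex19.2, Gpat2, Tdrd9, Tdrkh and Tdrd7 are filled to the right of 0 in both, and Gtsf1l, Wdr77 and Tdrd5 to the left of 0 in both.

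Other layers of transposon control were read beside the pathway. Of 20 genes of DNA methylation and repressive chromatin, 13 were tested. In Sohlh1 KO 3 rose and 3 fell (median 0.04), and in Sohlh2 KO 1 rose and 3 fell (median 0.15). Of all genes, 16.3% rose and 16.4% fell in Sohlh1 KO (median 0.03), and 12.5% rose and 13.0% fell in Sohlh2 KO (median 0.04). Dnmt3l, the cofactor that new DNA methylation needs in germ cells, fell by 2.10 in Sohlh1 KO and 2.18 in Sohlh2 KO on the log2 scale. In Sohlh2 KO it was above background on 1 of 3 arrays, and without background correction the differences were -0.88 and -0.90, so the size of its fall is uncertain. Dnmt1, the maintenance methyltransferase, fell by 1.00 and 1.02, and its guide protein Uhrf1 fell by 0.65 and 0.48. Atf7ip, a partner of the histone methyltransferase Setdb1, rose by 0.71 and 0.44. In Sohlh2 KO the call of Uhrf1 was lost in 10 of 25 alternatives and that of Atf7ip in 16 of 25. Neither passed when chip was a fixed term (adjusted p = 0.152 for Uhrf1 and 0.339 for Atf7ip), nor without Wildtype 2, Wildtype 4, Sohlh2 KO 3 or Sohlh2 KO 4, which left 0 genes of this list called higher and 2 lower. Of the 8 tested factors that restrict transposons in the cytoplasm or degrade their nucleic acids, 0 passed in either knockout by limma. An unadjusted p under 0.05 was found for 2 in Sohlh1 KO and 1 in Sohlh2 KO, against 42.1% and 36.7% of all genes. The count called in Sohlh1 KO ran from 0 to 2 over 26 alternatives, with 1 higher under median scaling and 1 lower under cyclic loess. It was 2 with Wildtype 1 left out and 1 with Sohlh1 KO 4 left out. The count in Sohlh2 KO was 1 with Sohlh1 KO 3 or Sohlh2 KO 3 left out.

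Marker genes of ovarian cell types were read as well. The shares of all genes to set beside each marker count are 16.3% higher and 16.4% lower in Sohlh1 KO, and 12.5% and 13.0% in Sohlh2 KO. Of 11 tested germ cell markers outside the pathway, 5 rose and 2 fell in Sohlh1 KO, and 5 rose and 3 fell in Sohlh2 KO (4 and 1 with chip as a block). Their summed level, on the linear scale of normalized intensity, was 6950 to 11428 in Sohlh1 KO, 6942 to 7902 in Sohlh2 KO and 8148 to 8795 in Wildtype. Dazl, an RNA-binding protein of germ cells, rose by 2.00 and 1.51, and Dppa3, a factor stored by oocytes, fell by 2.00 and 1.48. Of 10 tested markers of meiotic prophase, 9 rose and 1 fell in Sohlh1 KO, and 8 rose and 1 fell in Sohlh2 KO, with sums of 4287 to 6288 in Sohlh1 KO, 4491 to 5022 in Sohlh2 KO and 1229 to 1621 in Wildtype. Sycp3, Hormad1, Dmc1 and Stra8 of that list had no probe above background. The members' own sums were 3949 to 7845 in Sohlh1 KO, 4418 to 4759 in Sohlh2 KO and 2278 to 2844 in Wildtype.

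All 11 growing oocyte markers, among them Gdf9 and Nlrp14, fell in both knockouts, with sums of 4793 to 7320 in Sohlh1 KO, 6996 to 7489 in Sohlh2 KO and 69371 to 88544 in Wildtype. Of 11 tested pregranulosa and stroma markers, 1 rose in each knockout (Wnt4; with chip as a block 3 rose in Sohlh1 KO, and 2 rose and 1 fell in Sohlh2 KO), and the sums overlapped, at 17790 to 24182 in Sohlh1 KO, 19695 to 21382 in Sohlh2 KO and 18440 to 21356 in Wildtype. Of 7 tested markers of blood, endothelium and oviduct, 4 rose and 2 fell in Sohlh1 KO, and 3 rose and 2 fell in Sohlh2 KO. Their sums were 28052 to 35480 in Sohlh1 KO, 24925 to 34537 in Sohlh2 KO and 11101 to 15336 in Wildtype. The median log2 differences of this list were 0.45 in Sohlh1 KO and 0.11 in Sohlh2 KO, so its sums do not describe every marker. The part of these marker differences in the differences of the piRNA genes was not tested.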

How the data were processed

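Total RNA of 11 newborn ovary samples had been labelled and hybridized to BeadChips, which the authors read with BeadStudio 3.2, per the submitters' processing notes. The deposited table holds linear intensity values with no detection p or control probes. The lowest value was 98.39, which does not show whether background had been subtracted. The arrays shared 1 distribution (within 11.16 units at each rank), as quantile normalization gives. The deposited series matrix holds log2 values that equal the log2 of that intensity to within 0.005. Which step made these values is not given in the sources used here.

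In place of control probes, 1276 olfactory receptor probes stood for background. Values were corrected with normexp (offset 16), quantile normalized and put on the log2 scale with limma 3.58.1 (statmod 1.5.0, R 4.3.3). Probes brighter than 95% of those olfactory receptor probes counted as above background on that array. The filter asked for this on at least 3 arrays and passed 24451 probes. Each gene was its kept probe of highest mean. A model of 3 group means was fitted over all 11 arrays (8 residual degrees of freedom), with Benjamini-Hochberg adjustment over 13350 genes and calls at an adjusted p under 0.05. The fit was checked on simulated data. Arrays of a group correlated at 0.969 to 0.992.

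Groups and replicate numbers came from the titles. Probes took symbols from the platform annotation (34885 with 1 symbol, 18 with several, 10378 with none). The text names the members, the targeted genes, the 2 nearest genes of each member, up to 4 genes of each list by adjusted p, and called genes of the other pathway list. Members and lists were chosen with earlier results of these data known. Alternatives were cyclic loess or median scaling, the series matrix values, no background correction or an offset of 50, no filter or a strict one (99th percentile), all probes, array weights, replicate or chip as a block, each chip alone, only the groups compared, and arrays left out. For the other lists and their named genes these were added after the data were seen.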

Additional observations from a re-analysis of the deposited data

Results flagged for a closer look

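Of 14 tests for a single outlying array (7 genes, each by its brightest kept probe, in the 2 groups of 4 arrays), 2 met Dixon's criterion. Chance alone meets it in about 1 of 20 groups. Ddx4 probe 2 was not among these tests, and it was at 6.27 on Wildtype 4, with the next Wildtype array at 5.63. Gtsf1 was at 10.12 on Wildtype 1, with the next Wildtype array at 9.62. Without that array its differences were -0.38 in Sohlh1 KO (adjusted p = 0.172) and -0.46 in Sohlh2 KO (adjusted p = 0.148). Piwil2 was at 8.57 on Wildtype 4, with the next Wildtype array at 7.85. Without that array Piwil2 rose by 1.71 in Sohlh1 KO (adjusted p = 7.38e-06) and by 1.34 in Sohlh2 KO (adjusted p = 0.000128).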

How the results depend on the processing

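The count of the 7 genes called in Sohlh1 KO was 6 and ran from 4 to 7 over 26 alternatives (6 to 7 with single arrays left out), with 4 when Wildtype 2 and 3 were left out together. In Sohlh2 KO the count was 3, and it was 7 with array weights, 6 with only the groups compared, and 3 to 6 with single arrays left out. Leaving out any one Sohlh1 KO array gave 4 to 6, and that step, like fitting only the groups compared, leaves the differences as they were and changes the estimate of spread. For array weights the cause was not tested. The direct comparison gave 0 under all 26 alternatives. Gtsf1 in Sohlh2 KO turned to 0.0738 with chip as a fixed block, and its adjusted p ran from 0.0197 to 0.897 over 25 alternatives. The replicate number as a block gave counts of 6 in Sohlh1 KO, 4 in Sohlh2 KO (Ddx4 in addition) and 0 between the knockouts. The arrays share only a number: of 10 same-numbered pairs across groups, 1 correlated over 0.1 in its deviations from the group means (-0.20 to 0.13), and the titles and descriptions number the Sohlh2 KO arrays differently. In Sohlh2 KO, called genes of the DNA methylation list numbered 4 and ran from 2 to 8, and those of the other pathway list numbered 9 and ran from 5 to 13. Every alternative started from values already quantile normalized, so a shift shared by most genes could not be seen, and the median of all genes stayed within 0.1 of 0 under each scaling. Probes near background, Piwil4 above all, are limited by signal, and Mael could not be measured.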
